A study of Mus musculus with 10 samples.

Results

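Mitosis and kinetochore genes were described here as 48 genes, out of 21911 protein-coding gene symbols in the mouse annotation, chosen by name for their roles in cell division. For each gene, accessible sites within 1 kb of an annotated transcription start site (TSS), and sites in the gene body or within 20 kb of it, were taken from the ATAC-seq peak lists, and peaks of trimethylated histone H3 lysine 4 (H3K4me3) at the same TSSs from the ChIP-seq peak lists. The cells were primary neural stem and progenitor cells (NSPCs) of C57BL/6 mice at postnatal day 5, isolated from brain and grown in culture with B27 in all states. Activated NSPCs proliferated in 20 ng/ml of FGF2 and 20 ng/ml of EGF. Quiescent NSPCs kept the same dose of FGF2, received BMP4 at 25 ng/ml in place of EGF, and stayed so for 4 days per the labels (the methods give a shorter time), and reactivated NSPCs were returned from that medium to FGF2 and EGF for 9 to 12 days. ATAC-seq had 2 libraries in each of the 3 states and H3K4me3 ChIP-seq 1 library in each of the quiescent and activated states. The methods describe the replicate ATAC-seq libraries of activated and quiescent NSPCs as biologically independent but do not say whether they came from separate animals, and p-values measure the spread between these libraries.

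The ATAC-seq lists held 47037 to 60355 peaks in the 4 quiescent and activated libraries and 106270 and 106830 in the reactivated libraries, with a median fold enrichment from 3.52 to 4.92. The background pileup was 12.09 in quiescent library 2 and 6.01 to 6.61 in the other 5, and the lowest summit pileup called was 25 in that library and 16 or 17 in the others. The H3K4me3 lists held 17166 quiescent and 15962 activated peaks. As a check of the cell label, the promoters of the neural stem and progenitor markers Sox2, Nes, Vim, Pax6 and Hes5 were open in each state. Of the markers of other cells, 3, 3 and 4 of 4 neuronal promoters were open in quiescent, activated and reactivated NSPCs, 2, 2 and 3 of 4 astrocyte promoters, and 0, 1 and 1 of 4 promoters in each of the microglial and endothelial lists. Of the oligodendrocyte markers, the Mbp promoter was open in reactivated NSPCs alone. The oligodendrocyte markers Mog and Mag, the microglial markers Aif1 and Csf1r, and the endothelial markers Cldn5 and Cdh5 had no promoter peak in any library. How far other cells contributed to the peaks below was not tested.

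Cells enter mitosis when CDK1 bound to cyclin B is activated, and the kinases of the Aurora and Polo families then build the spindle. The kinetochore, a protein assembly on centromeric chromatin, attaches chromosomes to microtubules, and the spindle checkpoint holds the anaphase-promoting complex in check until every chromosome is attached. Most genes of this program are transcribed late in the cell cycle. In resting cells they are repressed by the DREAM complex, which contacts the cell cycle genes homology region (CHR) in their promoters, and in cycling cells the same element is used by B-MYB and FOXM1, while the CCAAT box nearby is bound by NF-Y.

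These elements were searched in RefSeq promoter sequences (GRCm38.p6, 250 bases before to 50 after the start), of which 38 of the 48 genes had one within 1 kb of their ATAC-seq summit. The genes not matched were Ccna2, Cdc25c, Aurkb, Spc24, Incenp, Kif20a, Kif2c, Tpx2, Smc4 and Foxm1. The sequences below show 30 bases around the CHR (TTTGAA, or else TTCGAA, on either strand, in capitals) in members of several roles, read 5′ to 3′ on the strand of the gene, with the position of the first capital relative to the start.
Cdk1 (chr10:69352910-69352939, minus strand, first capital at -15): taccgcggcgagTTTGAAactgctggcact
Cdc20 (chr4:118437344-118437373, minus strand, first capital at -18): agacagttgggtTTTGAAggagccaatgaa
Plk1 (chr7:122159453-122159482, plus strand, first capital at 31): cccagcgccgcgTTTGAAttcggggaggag
Aurka (chr2:172370521-172370550, minus strand, first capital at 33): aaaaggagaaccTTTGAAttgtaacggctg
Bub1 (chr2:127831828-127831857, minus strand, first capital at 15): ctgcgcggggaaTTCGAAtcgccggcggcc
Cenpf (chr1:189688067-189688096, minus strand, first capital at 3): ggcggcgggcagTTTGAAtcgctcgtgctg
Kif23 (chr9:61946780-61946809, minus strand, first capital at 3): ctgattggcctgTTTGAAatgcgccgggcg
Prc1 (chr7:80294434-80294463, plus strand, first capital at -5): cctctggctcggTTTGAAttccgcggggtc
Espl1 (chr15:102296254-102296283, plus strand, first capital at -27): tcactagggataTTTGAAaggaggtgctgg
Ncapg (chr5:45669883-45669912, plus strand, first capital at -30): ccgcgatagttgTTTGAAaactctggcgct

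The promoters of Top2a, Mki67 and Kif11, which differ in how often these letters occur, are shown over the 150 bases before the start, where capitals mark the CHR, the CCAAT box (CCAAT or ATTGG) and E2F-type cores (4 letter runs, namely TTGGCGC as well as TTCCCGC along with TTGCCGC and then TTCGCGC, on either strand; the first can share bases with a CCAAT box).
Top2a (chr11:99024190-99024339, minus strand): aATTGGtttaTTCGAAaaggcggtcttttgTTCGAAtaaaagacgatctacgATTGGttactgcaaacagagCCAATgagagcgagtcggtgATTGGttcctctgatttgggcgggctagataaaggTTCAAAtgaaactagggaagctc
Mki67 (chr7:135716380-135716529, minus strand): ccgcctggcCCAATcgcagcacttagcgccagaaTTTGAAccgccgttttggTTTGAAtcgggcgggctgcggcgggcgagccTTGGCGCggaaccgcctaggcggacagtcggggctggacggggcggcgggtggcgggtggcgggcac
Kif11 (chr19:37376232-37376381, plus strand): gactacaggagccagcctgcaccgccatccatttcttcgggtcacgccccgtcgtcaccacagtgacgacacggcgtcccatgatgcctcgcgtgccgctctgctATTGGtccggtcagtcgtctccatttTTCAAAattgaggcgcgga

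At least 1 CHR was present in 29 of the 38 promoters (76.3%), beside 12.6% of 8444 coding genes that also had a promoter site in all 6 libraries and 19.2% of all 32851 promoters in the table. A CCAAT box was present in 28 (73.7%, beside 41.2% and 37.4%), and 2 or more in 18 (47.4%, beside 17.3% and 11.7%). Both elements occurred together in 26 promoters (68.4%, beside 5.81% and 7.52%). E2F-type cores, by contrast, were found in 8 (21.1%, beside 19.5% and 9.57%). DNA replication genes had a CHR in 19.5%, an E2F-type core in 63.4% and a CCAAT box in 56.1% of 41 promoters, with 2 or more boxes in 34.1%. Of the 96 other mitosis genes outside the 48, 78 had a promoter sequence, with a CHR in 47.4%, an E2F-type core in 33.3%, a CCAAT box in 60.3% and 2 or more boxes in 35.9%. A CHR and a CCAAT box occurred together in 30.8% of these 78 promoters and in 12.2% of the 41 of DNA replication genes. The shares with a CCAAT box were thus above those of the coding genes in each of the 3 lists. The 39 CHR matches of the members had a median position 15 bases before the start and the 62 CCAAT boxes a median 71.5 bases before it. A match is a run of letters and does not show that a factor was bound.

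**Figure D1:**
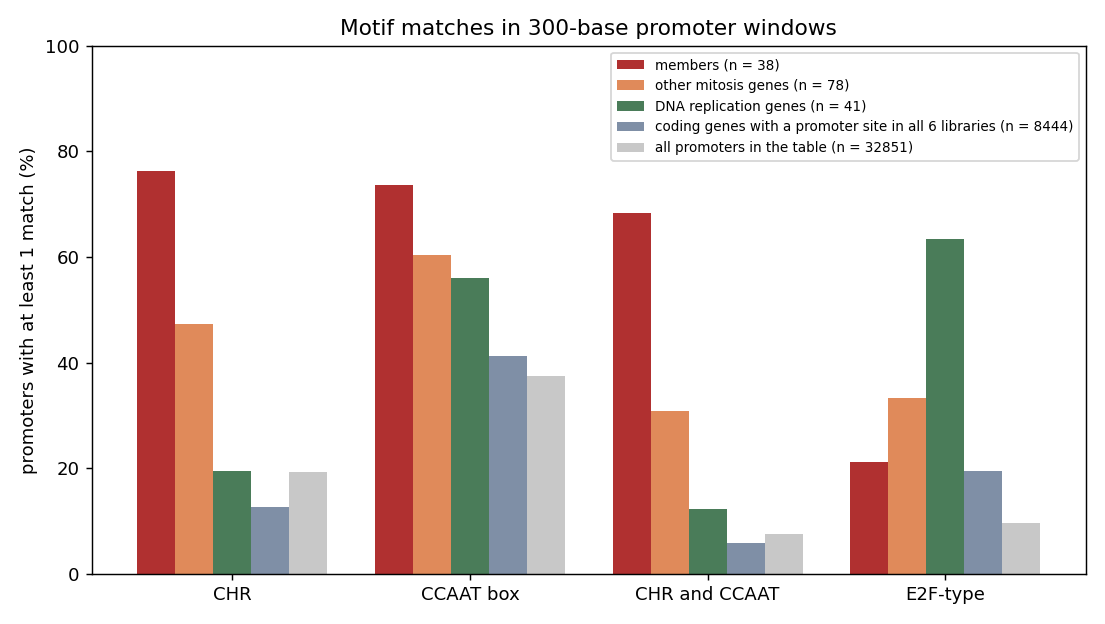
Share of RefSeq promoters (%, y axis) with at least 1 match to each element (x axis), for 5 sets of genes given with their number of sequences; the members had a CHR in 76.3% of 38 promoters and the DNA replication genes in 19.5% of 41.

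All 48 members had a promoter ATAC-seq peak in each of the 6 libraries, the quiescent ones included. Among all coding genes 53.2% did (55.6%, 55.9% and 65.1% in both quiescent, both activated and both reactivated libraries), and 86.5% of the 13114 coding genes with H3K4me3 in both states. All 48 also carried an H3K4me3 peak in both states, beside 59.9% of coding genes. The same was true of H3K4me3 in all 96 other mitosis genes and all 51 DNA replication genes, of which 92 and 49 had a promoter ATAC-seq peak in every library. The exceptions in ATAC-seq were Anapc1, Zwilch, Melk and Pbk, and Pola2 and Prim1. Requiring a −log10 q of at least 10 left 44 members with a peak in all 6 libraries. The peaks of Espl1, Ccnb2, Cdc25b and Bub1 fell below that level in quiescent library 1, as did the peak of 1 member in activated library 2.

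The level at these sites was close to that of the most similar gene lists. Among genes whose promoter site had a peak in all 6 libraries, the median fold enrichment (from the mean log2 value over the libraries) was 11.4 for members, 11.6 for the other mitosis genes, 11.2 for the DNA replication genes and 9.24 for all coding genes. The median member had a fold enrichment of 9.05 and 9.73 (quiescent), 11.6 and 9.43 (activated) and 14.1 and 14.8 (reactivated), which placed it between percentiles 90.5 and 95.6 of all peaks of the same list, promoters and other sites together. The weakest member lay at percentile 24.0 in quiescent library 1 and between percentiles 37.1 and 74.6 in the other 5. Taking each member's median summit over the 6 libraries, the distance to the nearest TSS had a median of 51.5 bp, was within 100 bp in 33 members and reached 285 bp at most, and the median summit was upstream of that TSS in 45 members and downstream in 3. In 8 members the site was shared with the promoter of another coding gene (Cdc25b with Spef1, Aurka with Cstf1, Cdca8 with 9930104L06Rik, Kif20a with Brd8, Smc4 with Ift80, Ncapd2 with Mrpl51, Foxm1 with Rhno1 and Nusap1 with Oip5), and its values cannot be assigned to either.

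**Figure D2:**
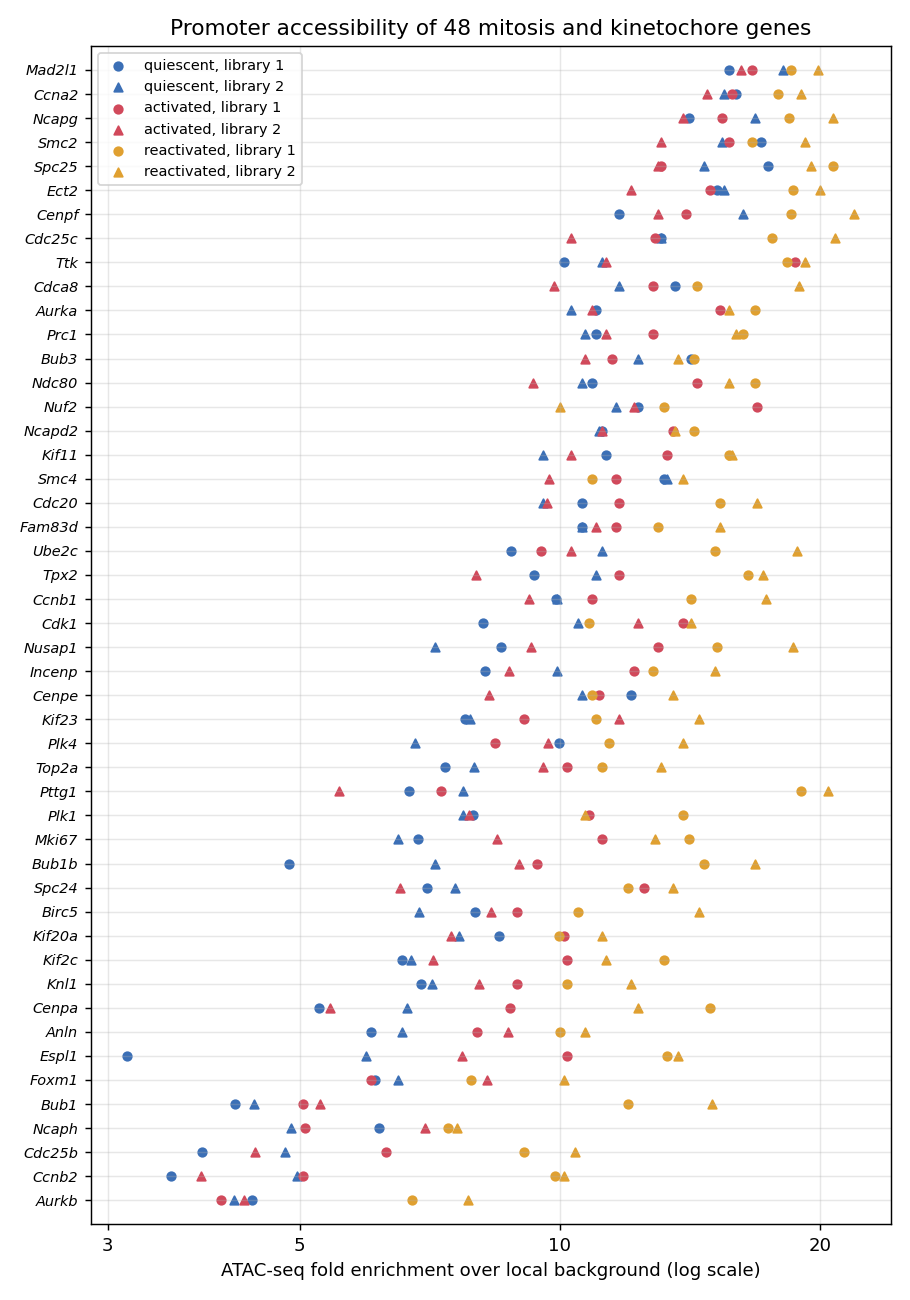
Fold enrichment at the promoter site (x axis, log scale) of each of the 48 members (y axis, ordered by mean log2 value), with colours for states and symbols for libraries; values run from 3.16 at Espl1 in quiescent library 1 to 21.9 at Cenpf in reactivated library 2.

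Fold enrichment was then compared between states with limma on log2 values at the 23116 sites with a peak in all 6 libraries, each library centred on its median site, with Benjamini-Hochberg adjustment over all of them. In this comparison a difference of 1 is a doubling relative to the median site. Before centring, the median site of reactivated libraries stood 0.87 higher than that of quiescent libraries and 0.65 higher than that of activated libraries on the log2 scale, and the activated 0.22 higher than the quiescent. The centring therefore sets the direction of small differences, and uncentred counts are given beside the centred ones. Fold enrichments of a gene are listed below in the order quiescent, activated and reactivated, library 1 before library 2.

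Few of these promoters differed between activated and quiescent NSPCs. In activated against quiescent NSPCs 1 member was higher and 7 were lower (2.08% and 14.6%) at an adjusted p below 0.05, beside 1.74% and 4.54% of the 11612 coding genes tested. The median difference of the 48 was -0.09, and that of all coding promoters was -0.09 as well. Without centring 1 was higher and 0 were lower, beside 3.87% and 0.431% of coding genes, and the median was 0.14. With quantile normalization the counts were also 1 and 0, beside 1.67% and 1.56%. Of the other mitosis genes, 1 of 92 was higher and 8 lower, and of the DNA replication genes 1 of 49 was higher and 5 lower, and without centring 1 was higher and 0 were lower in each list. On deposited values, both activated libraries lay above both quiescent libraries in 15 members, beside 34.9% of coding genes, and below both in 5, beside 7.68%.

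In reactivated against quiescent NSPCs 4 members were higher and 15 lower, beside 5.29% and 33.9% of coding genes, and the medians were -0.25 for members and -0.26 for all. Without centring, 35 were higher and 0 lower, beside 66.0% and 0.155% of coding genes, and the median was 0.62. With quantile normalization 5 were higher and 4 lower. From the recovered summit pileup in place of fold enrichment, 2 were higher and 7 lower of the 46 members tested. In reactivated against activated NSPCs 2 were higher and 6 lower, beside 4.17% and 19.8%, with medians of -0.20 and -0.18, and without centring 23 were higher and 0 lower, beside 49.3% and 0.138%, with a median of 0.45. Here quantile normalization gave 2 higher and 2 lower, and the pileup 1 higher and 2 lower. For the quantile and pileup counts of these comparisons no shares of coding genes are given, so they cannot be set against promoters in general. On deposited values both reactivated libraries lay above the other 4 in 36 members, beside 74.2% of coding genes, and below them in 0. The other mitosis genes gave 3 higher and 50 lower of 92 against quiescent NSPCs and 2 and 24 against activated NSPCs, and the DNA replication genes 1 and 16, and 0 and 10, of 49. Without centring these were 55 and 0, and 38 and 0, for the other mitosis genes, and 39 and 0, and 28 and 0, for the DNA replication genes. The 3 comparisons share their libraries and are not independent.

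**Figure D3:**
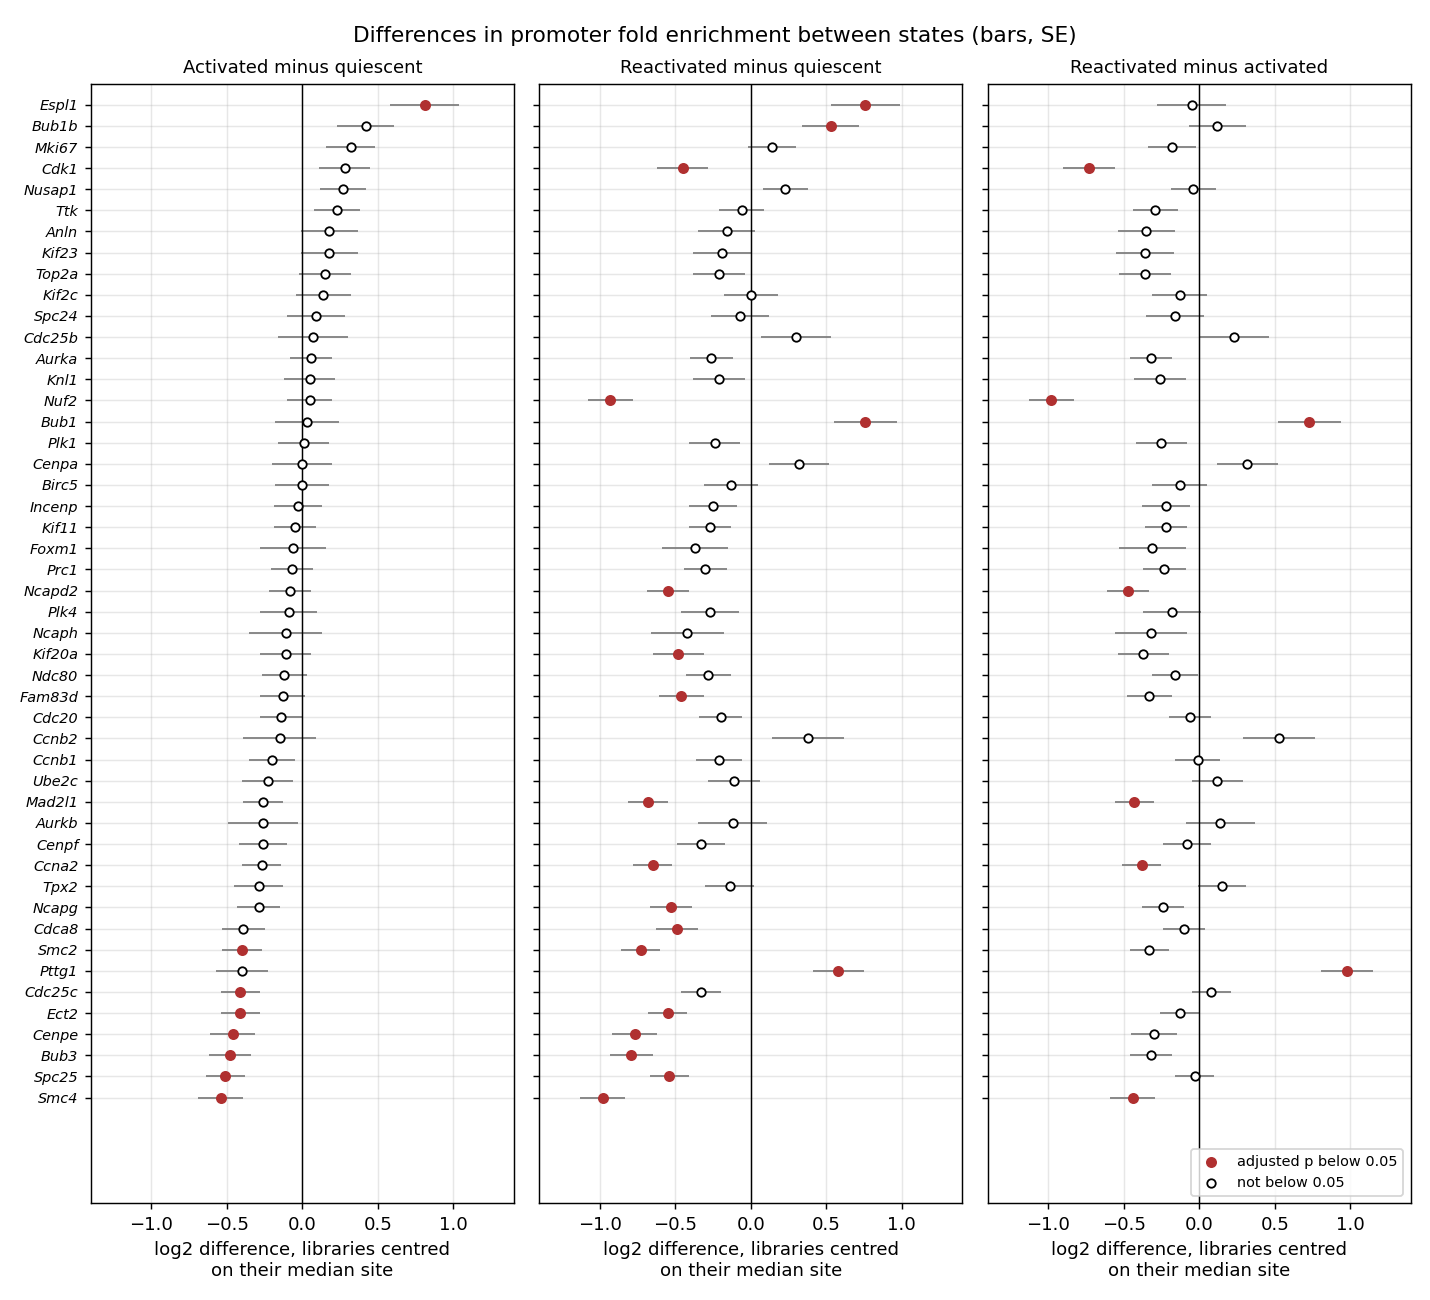
Differences in log2 fold enrichment (x axes, with SE) between states for the 48 members (y axis), after centring each library on its median site; filled points have an adjusted p below 0.05. Espl1 stands highest in activated against quiescent NSPCs (0.81) and Pttg1 in reactivated against activated NSPCs (0.98).

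Among the regulators of anaphase, Espl1 encodes separase, the protease that cuts cohesin between sister chromatids. Its promoter (chr15:102296023-102296559) had a fold enrichment of 3.16 and 5.96 (quiescent), 10.2 and 7.70 (activated) and 13.3 and 13.7 (reactivated). The states did not overlap. It was the 1 member higher in activated NSPCs, by 0.81 (SE 0.23, limma adjusted p = 0.0224), and it was also higher in reactivated than in quiescent NSPCs (0.76, SE 0.23, adjusted p = 0.0136). Both calls were lost without quiescent library 1, where the differences were 0.27 and 0.19 (adjusted p = 0.384 and 0.444), the first also without activated library 1 (0.75, adjusted p = 0.116) or 2 (0.92, adjusted p = 0.0533) and without the intensity trend, and the second without reactivated library 1 or 2 (0.76 in both). From the recovered summit pileup in place of fold enrichment, the second was 0.27 (adjusted p = 0.449).

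Pttg1 encodes securin, which keeps separase inactive. Its promoter (chr11:43426017-43426429) had a fold enrichment of 6.70 and 7.72 (quiescent), 7.29 and 5.56 (activated) and 19.0 and 20.4 (reactivated). Both reactivated libraries thus lay far above the other 4, which overlapped. The difference between reactivated and activated NSPCs was 0.98 (SE 0.17, limma adjusted p = 0.000559), and it stayed past the threshold under each of 14 alternatives. Against quiescent NSPCs it was 0.58 (SE 0.17, adjusted p = 0.0089), which was lost without quiescent library 1 (0.37), without either reactivated library (0.61 and 0.55) and with the pileup (0.36). H3K4me3 at this promoter had a fold enrichment of 17.6 in quiescent and 14.2 in activated NSPCs, the lowest of the 48 in the activated library.

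Cdc20 and Ube2c activate the anaphase-promoting complex and supply its ubiquitin-conjugating enzyme. Cdc20 stood at 10.6 and 9.55, 11.7 and 9.67, and 15.3 and 16.9 in the quiescent, activated and reactivated libraries. Ube2c stood at 8.77 and 11.2, 9.51 and 10.3, and 15.1 and 18.8. In both genes the quiescent and activated libraries overlapped and neither gene passed the test in any comparison.

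Of the spindle checkpoint genes, Bub1 and Bub1b were higher and Bub3 and Mad2l1 lower in reactivated than in quiescent NSPCs after centring, while without centring all 4 differences were positive (1.64, 1.41, 0.08 and 0.19). Bub1, a kinase at the kinetochore, had one of the 5 weakest promoter sites (chr2:127831523-127832087), at 4.21 and 4.43 (quiescent), 5.04 and 5.28 (activated) and 12.0 and 15.0 (reactivated). It was higher in reactivated than in quiescent (0.76, SE 0.21, limma adjusted p = 0.00769) and than in activated NSPCs (0.73, SE 0.21, adjusted p = 0.0188). With the pileup these differences were 0.25 and 0.28 (adjusted p = 0.496 and 0.5). The first call was also lost without quiescent library 1 (0.62) or reactivated library 2 (0.63), and the second without activated library 1 (0.55), reactivated library 1 (0.86) or 2 (0.59).

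Bub1b, which encodes the checkpoint protein BubR1, had 4.86 and 7.18 (quiescent), 9.42 and 8.98 (activated) and 14.7 and 16.8 (reactivated), with no overlap between states. It was higher in reactivated than in quiescent NSPCs (0.53, SE 0.19, limma adjusted p = 0.0314), and this call was lost without quiescent library 1 (0.14), without reactivated library 1 (0.60) or 2 (0.46), with the pileup (0.37), and without the intensity trend (adjusted p = 0.0777). Bub3, their binding partner, instead had 14.2 and 12.3, 11.5 and 10.7, and 14.3 and 13.7. It was lower in activated (-0.48, SE 0.14, adjusted p = 0.0257) and in reactivated NSPCs (-0.79, SE 0.14, adjusted p = 0.000219) than in quiescent NSPCs. The first call was kept under 3 of 14 alternatives, and was lost without quiescent library 1 (-0.45) or 2 (-0.54), activated library 1 (-0.38) or reactivated library 1 (-0.47) or 2 (-0.48). The second held under 13 of 14 alternatives and was 0.08 without centring, where the quiescent and reactivated libraries overlapped.

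Mad2l1 encodes MAD2, the part of the checkpoint that captures CDC20, and had the strongest promoter of the 48 over the 6 libraries. Its values were 15.7 and 18.1, 16.7 and 16.2, and 18.5 and 19.9 in the quiescent, activated and reactivated libraries. After centring it was lower in reactivated NSPCs, by -0.68 (SE 0.13, limma adjusted p = 0.000463) against quiescent and -0.43 (SE 0.13, adjusted p = 0.0254) against activated NSPCs, while the uncentred differences were 0.19 and 0.23. With quantile normalization they were -0.21 and -0.19 and were not called. The call against activated NSPCs was kept under 4 of 13 alternatives, and was lost without activated library 2 (-0.36) or reactivated library 1 (-0.40) or 2 (-0.45). Ttk, the MPS1 kinase, had 10.1 and 11.2, 18.7 and 11.3, and 18.3 and 19.2, and passed in no comparison.

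At the outer kinetochore, the NDC80 complex binds microtubules through Ndc80 and Nuf2 and is anchored through Spc24 and Spc25. Ndc80 had 10.9 and 10.6 (quiescent), 14.4 and 9.31 (activated) and 16.8 and 15.7 (reactivated) and passed in no comparison. Nuf2 (chr1:169531306-169531898) had 12.3 and 11.6, 16.9 and 12.2, and 13.2 and 10. Reactivated library 2 lay below the other 5, and reactivated library 1 lay above all but activated library 1. Relative to the median site it was lower in reactivated NSPCs, by -0.93 (SE 0.15, limma adjusted p = 0.000119) against quiescent and -0.98 (SE 0.15, adjusted p = 0.000295) against activated NSPCs. Both calls held under 13 of 14 alternatives and not without centring (-0.05 and -0.33).

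Spc25 had 17.4 and 14.7, 13.1 and 13, and 20.7 and 19.5, so both activated libraries lay below the quiescent ones on deposited values too. The site was lower in activated NSPCs by -0.51 (SE 0.13, limma adjusted p = 0.0112) and, after centring, in reactivated NSPCs by -0.54 (SE 0.13, adjusted p = 0.00294), which was 0.33 without centring. The activated difference was past the threshold in 9 of 14 alternatives and lost without quiescent library 1 (-0.47) or activated library 1 (-0.37), and the reactivated one was lost without reactivated library 2 (-0.47), with quantile normalization (-0.07) and with the pileup (-0.30), and passed in the opposite direction without centring (adjusted p = 0.042). Knl1, the scaffold that recruits the checkpoint, had 6.91 and 7.11, 8.92 and 8.07, and 10.2 and 12.1, and Spc24 ranged from 6.53 to 13.5, and neither passed in any comparison.

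Of the centromere proteins, Cenpa encodes the histone H3 variant that marks centromeres, and its promoter ranged from 5.26 to 14.9 without a call. Cenpe, a kinesin that carries chromosomes to the spindle equator, had 12.1 and 10.6, 11.1 and 8.27, and 10.9 and 13.5. It was lower in activated NSPCs (-0.46, SE 0.15, limma adjusted p = 0.0482) and in reactivated NSPCs (-0.77, SE 0.15, adjusted p = 0.000624) than in quiescent NSPCs, and uncentred differences were -0.24 and 0.11. The first call was kept under 2 of 14 alternatives and was lost in each of the 6 fits that left out a library (-0.35 to -0.53). Cenpf ranged from 11.7 to 21.9 and passed in no comparison.

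The mitotic kinases and cyclins are the core of entry into mitosis. Cdk1 (chr10:69352207-69353221) had 8.16 and 10.5 (quiescent), 13.9 and 12.3 (activated) and 10.8 and 14.2 (reactivated). The activated libraries lay above the quiescent ones, but the difference did not pass the test (0.28, SE 0.17, limma adjusted p = 0.297). This promoter was lower in reactivated than in activated NSPCs after centring (-0.73, SE 0.17, adjusted p = 0.0048), with -0.08 without centring, -0.48 from the pileup and -0.56 without reactivated library 1, none of which passed. Against quiescent NSPCs it was -0.45 after centring (SE 0.17, adjusted p = 0.037), 0.42 without it and 0.0 from the pileup, a call kept under 5 of 14 alternatives that was also lost without quiescent library 2 (-0.23) or reactivated library 1 (-0.28).

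Ccna2, which encodes cyclin A, had among the strongest sites, at 16 and 15.5, 15.8 and 14.8, and 17.9 and 19.0. It was lower in reactivated than in quiescent (-0.65, SE 0.13, limma adjusted p = 0.00048) and activated NSPCs (-0.38, SE 0.13, adjusted p = 0.0338) after centring, and these were 0.23 and 0.27 without it. The first was also lost with the pileup (-0.35) and with quantile normalization (-0.20), and the second was kept under 4 of 14 alternatives, being lost without activated library 2 (-0.34) or reactivated library 1 (-0.37) or 2 (-0.40). Ccnb1, which encodes cyclin B1, had 9.90 and 9.92, 10.9 and 9.20, and 14.2 and 17.3 and passed in no comparison. Ccnb2 was weak, with 3.55 and 4.97, 5.04 and 3.85, and 9.87 and 10.1, and also passed in none.

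CDC25 phosphatases switch on CDK1. Cdc25b had 3.86 and 4.81, 6.29 and 4.44, and 9.09 and 10.4, among the 5 weakest sites. Cdc25c had 13.1 and 13.1, 12.9 and 10.3, and 17.6 and 20.8, and was lower in activated than in quiescent NSPCs (-0.41, SE 0.13, limma adjusted p = 0.0437). That call was kept under 1 of 14 alternatives, the replicate number as a term in the model, and was lost in each of the 6 fits without 1 library (-0.35 to -0.49).

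Of the other mitotic kinases, Plk1, Aurkb, Plk4 and Aurka passed the test in no comparison. Plk1, a master kinase of mitosis, had 7.94 and 7.73, 10.8 and 7.86, and 13.9 and 10.7. Aurkb, the kinase of the chromosomal passenger complex, had the weakest site by the mean over the 6 libraries, though not in each library, at 4.40 and 4.20, 4.06 and 4.31, and 6.74 and 7.82. Plk4, the kinase of centriole duplication, had 9.99 and 6.80, 8.42 and 9.70, and 11.4 and 13.9, and Aurka, the kinase of spindle poles, ranged from 10.3 to 16.8.

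Of the partners of Aurkb in the passenger complex, Cdca8 (borealin) had 13.6 and 11.7, 12.8 and 9.84, and 14.4 and 18.9, and was lower in reactivated than in quiescent NSPCs after centring (-0.49, SE 0.14, limma adjusted p = 0.0107) and 0.38 without it. That call was kept under 7 of 14 alternatives, and among those that ended it were quantile normalization (-0.14) and leaving out reactivated library 1 (-0.32). Birc5 (survivin) had 7.97 and 6.88, 8.92 and 8.32, and 10.5 and 14.5, and Incenp ranged from 8.19 to 15.1, with no call. Foxm1, the transcription factor of these genes, had 6.11 and 6.50, 6.04 and 8.23, and 7.89 and 10.1, and was likewise not called.

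Among the genes of chromosome structure, Smc2 and Smc4 encode the ATPases of condensin, which compacts mitotic chromosomes. Smc2 had 17.1 and 15.4, 15.7 and 13.1, and 16.7 and 19.2. Values were lower in activated (-0.40, SE 0.13, limma adjusted p = 0.0361) and reactivated NSPCs (-0.73, SE 0.13, adjusted p = 0.000164) than in quiescent NSPCs, or -0.18 and 0.15 uncentred, the second also lost with quantile normalization (-0.28), and the first call was kept under 1 of 14 alternatives and lost in each of the 6 fits without 1 library (-0.37 to -0.43).

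Smc4 had 13.2 and 13.3, 11.6 and 9.72, and 10.9 and 13.9. Both activated libraries lay below both quiescent ones. The differences were -0.54 (SE 0.15, limma adjusted p = 0.0171) for activated and -0.98 (SE 0.15, adjusted p = 4.91e-05) for reactivated against quiescent NSPCs, the second past the threshold in 13 of 14 alternatives and -0.10 uncentred. The first call was kept under 7 of 14 alternatives, and was lost without centring (-0.31), without quiescent library 2 (-0.49) and without activated library 1 (-0.52) or 2 (-0.51). Against activated NSPCs reactivated NSPCs were at -0.44 after centring (SE 0.15, adjusted p = 0.037) and at 0.21 without it, a call kept under 3 of 14 alternatives and lost without activated library 1 (-0.45) or 2 (-0.48) or reactivated library 1 (-0.30) or 2 (-0.59).

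Of the non-SMC subunits of condensin, Ncapd2 had 11.2 and 11.1, 13.5 and 11.2, and 14.3 and 13.6. It was lower in reactivated NSPCs after centring, by -0.55 (SE 0.14, limma adjusted p = 0.00395) against quiescent and -0.47 (SE 0.14, adjusted p = 0.0211) against activated NSPCs, and 0.32 and 0.18 without it. The first call was lost without reactivated library 2 (-0.49), with quantile normalization (-0.30) and with the pileup (-0.26), and the second, kept under 4 of 14 alternatives, without activated library 2 (-0.51) or reactivated library 1 (-0.53) or 2 (-0.41). Ncapg had 14.1 and 16.8, 15.4 and 13.9, and 18.4 and 20.7, and was lower in reactivated than in quiescent NSPCs (-0.53, SE 0.14, adjusted p = 0.00405), or 0.34 uncentred (passing in that direction, adjusted p = 0.0381), a call lost with quantile normalization (-0.07) and without quiescent library 2 (-0.37) or reactivated library 1 (-0.47). Ncaph was one of the 5 weakest, at 6.18 and 4.89, 5.07 and 6.99, and 7.43 and 7.60, and passed in no comparison. Top2a, the topoisomerase that untangles sister chromatids, had 7.36 and 7.95, 10.2 and 9.55, and 11.2 and 13.1, so that its states did not overlap on deposited values, but the largest centred difference was -0.36.

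Among the genes of the spindle and of cell cleavage, Ect2, the exchange factor that starts the cleavage furrow, had 15.2 and 15.5, 14.9 and 12.1, and 18.6 and 20.0. It was lower than in quiescent NSPCs by -0.41 in activated (SE 0.13, limma adjusted p = 0.0305) and -0.55 in reactivated NSPCs (SE 0.13, adjusted p = 0.00194), or -0.19 and 0.33 uncentred, and the first was kept under 4 of 14 alternatives and lost without quiescent library 2, either activated library or either reactivated library (-0.36 to -0.42). The second was lost with quantile normalization (-0.09) and passed in the opposite direction without centring (adjusted p = 0.0481). Kif20a, a kinesin of the midzone, had 8.51 and 7.64, 10.1 and 7.49, and 9.99 and 11.2, and was at -0.48 in reactivated against quiescent NSPCs after centring (SE 0.17, adjusted p = 0.0274) and at 0.39 without it, a call kept under 4 of 14 alternatives and lost without quiescent library 1 (-0.51) or 2 (-0.52) or reactivated library 1 (-0.43) or 2 (-0.54). Fam83d, a spindle protein, had 10.6 and 10.6, 11.6 and 11, and 13 and 15.3, and was at -0.46 (SE 0.15, adjusted p = 0.0175), kept under 5 of 14, passing in the opposite direction without centring (0.41, adjusted p = 0.0348) and lost with the pileup (-0.07) and without quiescent library 2 (-0.42) or reactivated library 1 (-0.37).

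The other spindle genes passed in no comparison. Tpx2, which activates Aurora A on the spindle, had 9.33 and 11, 11.7 and 7.99, and 16.5 and 17.2. Anln, a scaffold of the contractile ring, had 6.05 and 6.57, 8.03 and 8.70, and 10 and 10.7, without overlap between states on deposited values. Nusap1, which bundles spindle microtubules, had 8.55 and 7.18, 13 and 9.27, and 15.2 and 18.6, also without overlap. The motors and their partners ranged over the 6 libraries from 9.55 to 15.8 at Kif11, 7.77 to 14.5 at Kif23, 6.57 to 13.2 at Kif2c and 10.7 to 16.3 at Prc1. Mki67, which coats mitotic chromosomes and is used as a marker of dividing cells, had 6.85 and 6.50 (quiescent), 11.2 and 8.47 (activated) and 14.1 and 12.9 (reactivated). Its states did not overlap on deposited values, but the centred difference between activated and quiescent NSPCs, 0.32 (SE 0.16, limma adjusted p = 0.206), did not pass. Besides Espl1, the largest positive differences in activated NSPCs were those of Bub1b (0.42), Mki67, Cdk1 and Nusap1 (0.27), none of which passed.

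H3K4me3, a mark of active and poised promoters, was present at every member in both states, as broad peaks of 1209 to 5755 bp in quiescent and 1237 to 4986 bp in activated NSPCs. The median width was 2598.5 and 2629 bp in members and 2152 and 2043 bp in all coding genes with the mark. It was 2562.5 and 2504.5 bp in the other mitosis genes, close to the members, and 2190 and 2241 bp in the DNA replication genes. Fold enrichment ranged from 10.6 to 67.8 in the quiescent and from 14.2 to 59.4 in the activated library. With 1 library a state there is no replicate, and the differences below compare 2 libraries and not the states.

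The mark tended to be higher in the activated library. On deposited values 30 of 48 members were higher there, while the median of all coding genes was 0.11 lower on the log2 scale (a log2 ratio of -0.11). Relative to that median, 17 members were more than 1.25-fold higher in the activated library and 1 was more than 1.25-fold lower, beside 10.8% and 12.8% of 13114 coding genes. The members' median stood at 0.21, that of the other mitosis genes at 0.11 with 22 of 96 higher and 4 lower, and that of the DNA replication genes at 0.07 with 7 of 51 higher and 7 lower.

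The 5 members with the largest ratio were Plk1, with 35.6 in the quiescent and 59.4 in the activated library, Ccnb2 (10.6 and 17.6), Mad2l1 (21.3 and 34.5), Ect2 (35.5 and 53.9) and Cdk1 (35.1 and 50.9). The 5 with the smallest were Aurkb (47.6 and 32.8), Ncapg (48.9 and 37.8), Plk4 (67.8 and 54.1), Pttg1 (17.6 and 14.2) and Knl1 (49.6 and 40.5). Aurkb, the 1 member past 1.25-fold in that direction, had the lowest mean ATAC-seq value, and its H3K4me3 level was above the members' median of 36.9 in the quiescent library and below their median of 38.7 in the activated library. Of the other named role genes, Mki67 had 39.1 and 42.0, Top2a 39.7 and 48, Ccnb1 37.2 and 37.3, Cdc20 23.4 and 28.9, Bub1 38.3 and 45.0, Ndc80 33.8 and 37.6, and Foxm1 36.1 and 34.7.

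**Figure D4:**
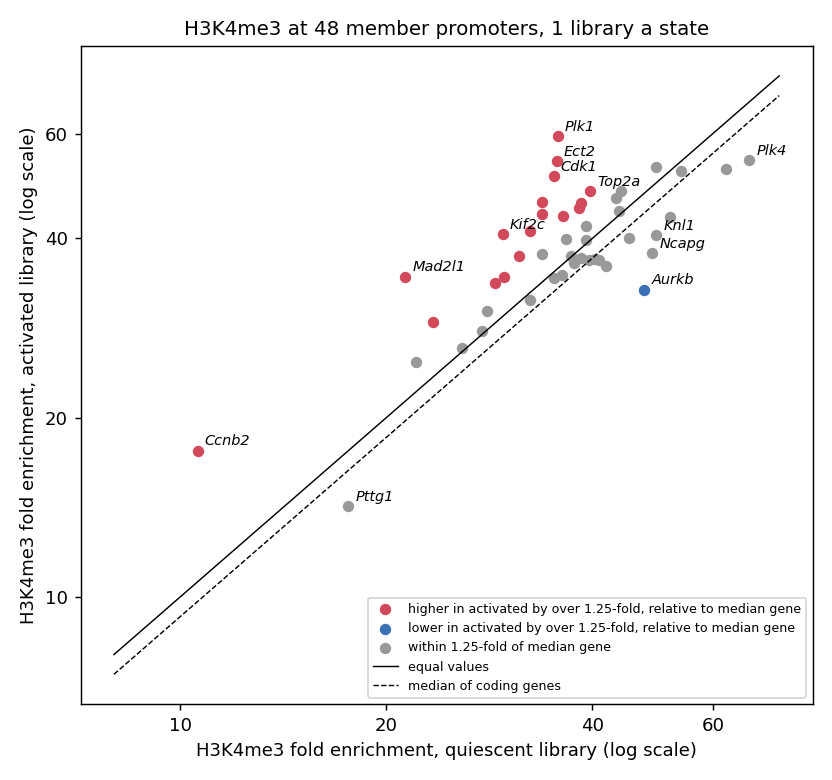
H3K4me3 fold enrichment of each member in the quiescent (x axis) and activated library (y axis), both on log scales, with lines for equal values and for the median coding gene; colours mark members more than 1.25-fold from that median, 17 above and 1 below.

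Around the members, 160 further sites lay in gene bodies or within 20 kb, at 44 genes, with a median of 3 per gene as for all coding genes. Of these, 67 were promoters of other genes, 12 lay in exons, 29 in introns and 52 between genes, and 17 were within a member's own body. A peak in both quiescent and both activated libraries was seen at 49 sites (30.6%, beside 20.3% of the sites around coding genes), all of which were also open in both reactivated libraries. The share open in reactivated NSPCs was not computed for such sites around all coding genes. Of these 49, 35 were promoters of other genes and 14 were among the 93 sites outside promoters. Places were not counted for the sites around all coding genes. Whether 30.6% beside 20.3% follows from the number of neighbouring promoters was not tested. In both quiescent and no activated library there were 9 (5.62%, beside 6.46%), in both activated and no quiescent library 5 (3.12%, beside 4.11%), and in both reactivated libraries alone 15 (9.38%, beside 14.9%). The other 82 fell into none of these classes. The last 3 counts were also taken with 1 library left out, so that its state was judged on the 1 library that remained. That rule is looser, so these counts could hardly fall and do not measure how far they depend on a library. The 9 became 16 and 18 without quiescent library 1 and 2 and 14 without activated library 1, the 5 became 9 without quiescent library 2 and 15 without activated library 2, and the 15 became 24 without activated library 1 and 33 and 36 without reactivated library 1 and 2.

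Of the 49 sites tested, 1 was higher and 2 were lower in activated than in quiescent NSPCs, beside 6.35% and 7.05% of all sites. In reactivated NSPCs 4 were higher and 15 lower than in quiescent NSPCs, beside 11.5% and 25.7%, and 6 and 7 than in activated NSPCs, beside 7.66% and 14.5%. Without centring the higher and lower counts of the 3 comparisons were 1 and 1 (beside 9.46% and 1.91% of all sites), 32 and 1 (beside 68.2% and 0.545%), and 27 and 1 (beside 52.6% and 0.472%). The lower site with the larger difference, which was also called without centring, lay between genes on the 3′ side of Cdk1 (chr10:69326405-69326973), its middle 26.2 kb downstream of the TSS at the Cdk1 promoter site and 16040 bp from the nearest annotated TSS of the gene, without H3K4me3 in either state. It had a fold enrichment of 10.2 and 11.5 (quiescent), 2.79 and 3.71 (activated) and 11.4 and 8.90 (reactivated). Activated libraries were thus far below all the others, while quiescent and reactivated libraries overlapped. The difference between activated and quiescent NSPCs was -1.97 (SE 0.23, limma adjusted p = 5.99e-06) and stayed past the threshold in every alternative that gave it a value, from -1.62 to -2.28. Reactivated NSPCs were higher than activated NSPCs by 1.0 (adjusted p = 0.00516), or 0.79 without reactivated library 1, where the call was lost (adjusted p = 0.106). They were lower than quiescent NSPCs by -0.98 (adjusted p = 0.00236) after centring and by -0.10 without it, and this call was also lost without quiescent library 2 (-0.86) or reactivated library 2 (-0.77).

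The Cdk1 promoter had the opposite order on deposited values between quiescent and activated NSPCs, as given above. A weaker site farther along (chr10:69321299-69321546) had 6.57 and 4.05 in quiescent and 6.54 and 8.25 in reactivated NSPCs and no peak in either activated library. The 201 bases around the summit of the stronger site are shown on the plus strand of GRCm38, with the NFI half-site TTGGC, read on either strand, in capitals, a motif of factors studied in quiescent neural stem cells.
Cdk1 downstream site (chr10:69326545-69326745): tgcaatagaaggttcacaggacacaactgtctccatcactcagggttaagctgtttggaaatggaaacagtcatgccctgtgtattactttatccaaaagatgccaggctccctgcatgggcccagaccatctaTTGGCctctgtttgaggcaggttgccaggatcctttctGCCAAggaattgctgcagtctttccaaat
It held 2 half-sites. Of windows of this length at the 23116 tested sites, 15.4% held 2 or more and 46.9% at least 1, and the weaker site beyond it held 0.

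The 1 site higher in activated NSPCs was in the promoter of Exosc9, a subunit of the RNA exosome, 20.6 kb from the TSS at the Ccna2 promoter site (chr3:36551271-36551910). It had 2.63 and 3.36 (quiescent), 11.4 and 9.21 (activated) and 13.5 and 15.1 (reactivated), with no overlap between states. The difference was 1.56 (SE 0.20, limma adjusted p = 1.47e-05) for activated and 1.39 (adjusted p = 2.96e-05) for reactivated against quiescent NSPCs, and both held in every alternative that gave a value. Another site in the Exosc9 promoter (chr3:36552200-36552870) had 6.97 and 7.34, 6.51 and 6.45, and 7.63 and 5.96. That site was not called in activated against quiescent NSPCs (-0.36, limma adjusted p = 0.284). After centring it was lower in reactivated than in quiescent (-0.96, adjusted p = 0.0015) and activated NSPCs (-0.60, adjusted p = 0.0489), although on deposited values the reactivated libraries overlapped both states. The strong site of Ccna2 itself was not called between activated and quiescent NSPCs (-0.27, adjusted p = 0.17).

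**Figure D5:**
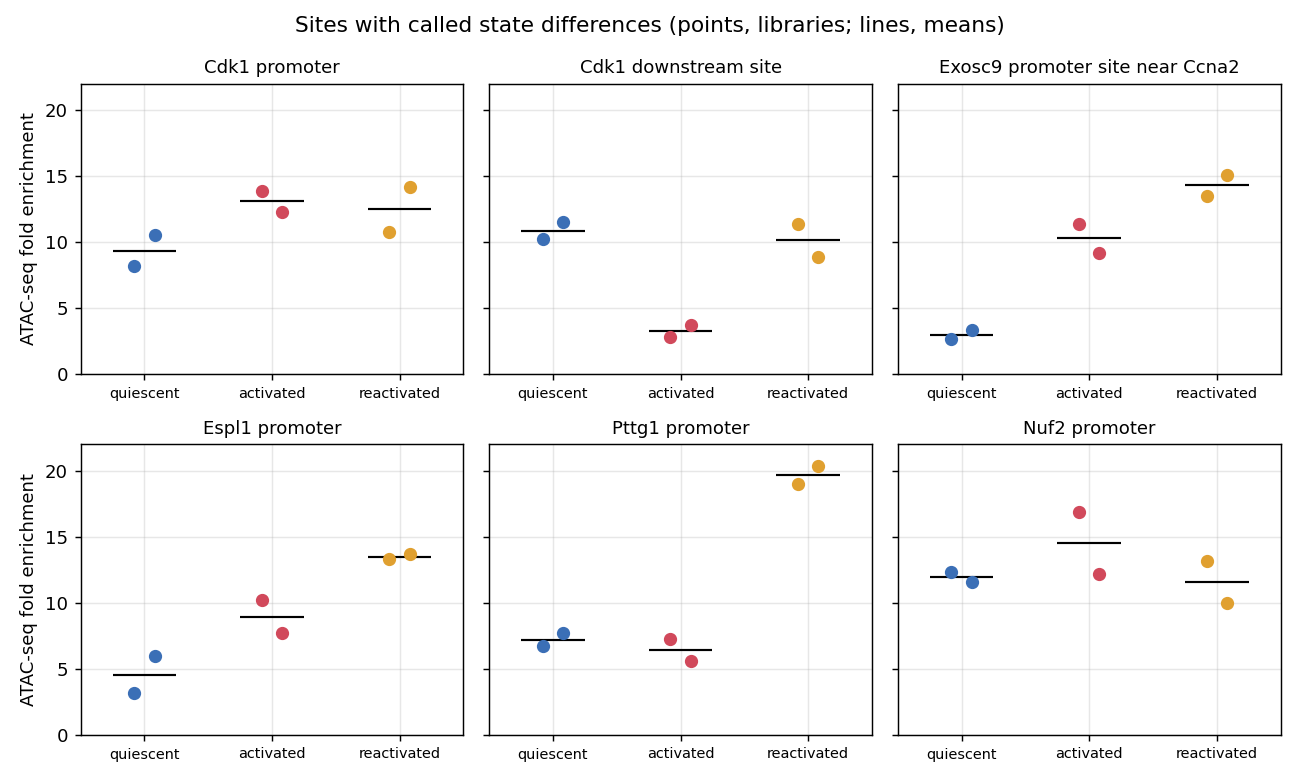
Fold enrichment by state (x axis) in each library (points, y axis) with the mean of 2 libraries (lines), for promoters of Cdk1, Espl1, Pttg1 and Nuf2 and for 2 flanking sites; the site downstream of Cdk1 stood at 2.79 and 3.71 in activated and at 8.90 or more in the other libraries.

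Of the strongest sites outside promoters, 4 others had a peak in all 6 libraries. An intergenic site beyond Nuf2 (chr1:169485146-169485947), inside H3K4me3 peaks of both states, had 11.3 and 10.3, 8.96 and 7.72, and 12.6 and 11.9, and was the other site lower in activated than in quiescent NSPCs (-0.60, limma adjusted p = 0.0111), a call that was lost without centring. After centring it was also lower in reactivated than in quiescent NSPCs (-0.69, adjusted p = 0.00153), although both reactivated libraries lay above both quiescent ones on deposited values. An intron of Cenpf (chr1:189644792-189645675) had 8.0 and 8.78, 10.8 and 8.77, and 12.5 and 13.6, an intergenic site near Anln (chr9:22327546-22328451) 6.29 and 5.96, 6.90 and 5.99, and 11.3 and 11.7, and one upstream of Mki67 (chr7:135735645-135736126) 5.74 and 5.76, 5.74 and 4.30, and 9.00 and 8.90. None of these 3 passed in any comparison. A site 17.3 kb from the TSS at the Aurkb promoter site (chr11:69062691-69063208) had 4.19 and 4.82, 4.39 and 4.03, and 2.45 and 2.31. Its level was lower in reactivated than in quiescent (-1.79, adjusted p = 9.42e-06) and activated NSPCs (-1.47, adjusted p = 0.000244), and both reactivated libraries lay below the other 4 on deposited values as well. Both calls held in every alternative that gave a value, and the site lay inside H3K4me3 peaks of both states.

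The other sites with a peak in both quiescent and no activated library were weak. Values in the quiescent libraries were 3.81 and 2.45 in an intron of Ncaph, 3.76 and 2.94 in an intron of Fam83d, 3.90 and 3.41 upstream of Cdca8, 3.29 and 3.13 in an intron upstream of Bub3, 2.88 and 3.02 in an intron upstream of Birc5, 3.94 and 3.90 upstream of Ttk, and 3.02 and 2.84, and 2.94 and 3.72, at a pair of intronic sites upstream of Cdc20. In both reactivated libraries, 5 of the 9 sites were open, those of Cdk1, Ncaph, Fam83d, Cdca8 and Bub3. The share for such sites around all coding genes was not computed.

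All 5 sites with a peak in both activated and no quiescent library were open in both reactivated libraries. Here too the share around all coding genes was not computed, and the reactivated lists held more peaks than the others. The strongest of the 5, in an intron beyond Fam83d (chr2:158799234-158799991), had 7.23 and 6.71 in activated and 10 and 9.27 in reactivated NSPCs. The others had 3.13 and 3.14 in activated NSPCs beyond Bub1b, 6.37 and 3.14 in the promoter of Epha10 near Cdca8, 4.07 and 3.07 in an intron near Ncapd2, and 2.67 and 3.92 in the promoter of Gapdh near the same gene. The 15 sites of reactivated NSPCs alone had reactivated values of up to 6.17 and 4.05 between genes near Pttg1 and 4.70 and 6.60 in the promoter of Cdc23 near Kif20a. With the 6 lists cut to equal length, 0 of these 15 remained.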

How the data were processed

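ATAC-seq peak lists of 6 libraries (3 states, 2 libraries each) and H3K4me3 ChIP-seq peak lists of 2 libraries were used. According to the submitters' processing notes and the methods, reads were trimmed with Trim Galore 0.4.0, aligned to mm10 with Bowtie2 2.2.5, and processed with SAMtools 1.3.1 and Picard 1.88. Reads of the reactivated libraries were reduced in number by the authors before peaks were called in each library. The authors called ATAC-seq peaks with MACS at a false discovery rate of 0.05 and broad H3K4me3 peaks against input with a broad cutoff of 0.01. Deposited values are the fold enrichment, a ratio of pileup to local background within 1 library that is not normalized between libraries. The deposited files also give −log10 p and −log10 q of each peak, a score that is a multiple of −log10 q (not used here) and the summit. Depth in reads is not in the peak lists and was not used here, so no counting interval was computed, and the number of peaks and the summit pileup recovered from the deposited values (99.46 to 99.83% of peaks, tolerance 0.02%) stand in for it.

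Peaks of the 6 lists were merged where they overlapped or abutted, into 108367 sites, of which 23116 had a peak in every library. A promoter site lay within 1 kb of a GENCODE M21 TSS and took the highest fold enrichment in each library. Log2 values, centred on the median site, were compared with limma 3.58.1 (moderated test with an intensity trend, R 4.3.3) over all 23116 sites, without a replicate block. Calls had a Benjamini-Hochberg adjusted p below 0.05. The fit was also run on simulated data, but the outcome is not reported here and no call rests on it. The 1 library a state of H3K4me3 allowed no test, and a ratio of 1.25-fold was used as a description.

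The members and comparison lists were chosen with earlier results of these data known. Values in every library are given for members called in any comparison, the 5 strongest and 5 weakest, the 5 with the largest differences between activated and quiescent NSPCs and in H3K4me3 each way, 1 member for each role, and members with a site of 1 state nearby. Alternatives were other windows and flanks, a −log10 q of at least 10, lists of equal length, the summit in place of any overlap, no centring, quantile normalization, no trend, a replicate block, genes as units, percentiles, and leaving out each library. Pileups and centring on promoter sites were added after seeing the data. Some marker genes and 1 promoter sequence are not reported here.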

Additional observations from a re-analysis of the deposited data

How the results depend on the processing

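All 48 members kept their ATAC-seq and H3K4me3 promoter peaks with windows of 500 bp or 2 kb and with coding transcripts alone, and with a −log10 q of at least 10 the ATAC-seq count was 44. Of 567 alternative values for 42 gene or site differences, 364 kept direction and call, 185 lost the call and 18 changed sign. With no centring the changed signs in reactivated against quiescent NSPCs were those of Cdk1 (0.42), Ccna2 (0.23), Bub3 (0.08), Mad2l1 (0.19), Cenpe (0.11), Spc25 (0.33), Cdca8 (0.38), Kif20a (0.39), Ect2 (0.33), Smc2 (0.15), Ncapd2 (0.32), Ncapg (0.34) and Fam83d (0.41), and against activated NSPCs those of Ccna2 (0.27), Mad2l1 (0.23), Smc4 (0.21) and Ncapd2 (0.18). With the pileup, Cdk1 was at 0.0 in reactivated against quiescent NSPCs. The centring sets these directions by construction, and for the pileup the cause was not tested.

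For activated against quiescent NSPCs, the 1 higher member became 0 without the trend and with a −log10 q of at least 10, and 0 to 2 when 1 library was left out (0 without quiescent library 1, activated library 1 or activated library 2, and 2 without quiescent library 2). The 7 lower became 0 with no centring, 0 with quantile normalization, 0 without the trend, 2 with a −log10 q of at least 10, 1 with genes as units, 4 centred on promoter sites and 0 to 4 when any 1 library was left out. The median of -0.09 became 0.14 with no centring, 0.0 with quantile normalization, and -0.18 percentile points with percentiles. Left out singly, libraries gave -0.17 to -0.04.

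For reactivated against quiescent NSPCs, the 4 higher became 35 with no centring, 7 with genes as units, 2 with the pileup and 0 to 4 with 1 library left out (0 without quiescent library 1, 1 without reactivated library 1, 0 without reactivated library 2). The 15 lower became 0 with no centring, 4 with quantile normalization and 7 with the pileup, and 10 to 17 with 1 library left out. The median of -0.25 became 0.62 with no centring, -0.05 with quantile normalization, -0.10 with a −log10 q of at least 10, -0.04 with genes as units, -0.05 centred on promoter sites and 3.4 percentile points, and was -0.36 to -0.18 with 1 library left out (-0.36 without quiescent library 1).

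For reactivated against activated NSPCs, the 2 higher became 23 with no centring, 1 with a −log10 q of at least 10, 1 with the pileup and 1 to 2 with 1 library left out (1 without activated library 1 or either reactivated library). The 6 lower became 0 with no centring, and 2 with each of quantile normalization, no trend, a −log10 q of at least 10, genes as units, the pileup and centring on promoter sites, and 1 to 7 with 1 library left out (3 without activated library 2, 1 and 2 without reactivated library 1 and 2). The median of -0.20 became 0.45 with no centring, -0.07 with quantile normalization, -0.11 with a −log10 q of at least 10, -0.05 with genes as units, -0.10 with the pileup, -0.06 centred on promoter sites and 3.52 percentile points, and was -0.24 to -0.17 with 1 library left out.

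Among the flanking sites, those of quiescent and activated NSPCs numbered 25 within 10 kb, 117 within 50 kb and 48 to 54 with 1 library left out. Those of quiescent and not activated NSPCs numbered 4 and 14 at these distances, 2 with a −log10 q of at least 10 and 9 to 18 with 1 library left out (16 and 18 without quiescent library 1 and 2, 14 without activated library 1). Those of activated and not quiescent NSPCs numbered 1 and 16, 2, and 5 to 15 (9 without quiescent library 2, 15 without activated library 2). Those of reactivated NSPCs alone numbered 9 and 50, 0 with lists of equal length, and 16 to 36 (24 without activated library 1, 33 and 36 without reactivated library 1 and 2). With a library left out, its state is judged on the 1 library that remains, a looser rule under which these counts tend to rise by construction.

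Replicate numbers were shared between states without a stated pairing, and deviations of libraries with the same number were not correlated (r = -0.00133 for quiescent and activated, 0.0423 for quiescent and reactivated, -0.0173 for activated and reactivated NSPCs). With a replicate block the counts were 1 higher and 7 lower, 4 and 17, and 2 and 6 in the 3 comparisons, with medians of -0.09, -0.25 and -0.20. None of the 42 gene or site differences rerun under the alternatives lost its call. The calls at the intergenic site beyond Nuf2 were not among these 42. Nor were those at the Exosc9 promoter site that was not called between activated and quiescent NSPCs. Depth in reads is not in the peak lists and was not used here, and a site without a peak may lie below the calling limit.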
